A study of Mus musculus with 3 samples.

Results

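C4 was the cluster of splenic CD4+ T cells that the study labelled follicular helper T (TFH) cells. Its members were chosen as the cells of the deposited CD4 cell table with cluster number 4 that did not carry the mark of a TEa T cell, and their counts were summed per pool of mice. This gave 967 cells of 10371 CD4 cells in all and of 10091 CD4 cells without the TEa mark. The cluster number was assigned by the authors from the same transcripts, so the contrast of C4 with the other CD4 cells is given below as a description without a test. The doses of cyclosporine (CSA) were compared over pools. The clusters were set over the cells of all doses together, so a cell whose marker transcripts changed with dose could be placed inside or outside C4 by that change. Dose tests of the marker genes within C4, or of C4 against the other cells, are therefore not independent of the choice of members.

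The study asked what calcineurin inhibition with CSA, started at transplantation, does to alloreactive T cells in a mouse model of graft-versus-host disease (GVHD) after bone marrow transplantation (BMT). Recipients were irradiated B6D2F1 mice, and every group received bone marrow and T cells from B6 donors together with TEa T cells, which carry a transgenic T cell receptor (TCR) for an alloantigen-derived peptide. Saline or CSA (5 mg/kg or 50 mg/kg) was given each day over days 0 to 6, and spleens were harvested on day 7. Each group held 6 mice in 3 pools of 2, told apart by hashtag antibodies, and sorted CD4+ and CD8+ donor T cells were combined 1:1 and run in 1 droplet capture per group, so capture and treatment cannot be told apart. All groups were thus alloreactive transplants without an untransplanted or syngeneic control, and a pool is the replicate throughout.

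TFH cells are CD4+ T cells that enter B cell follicles and help B cells to form germinal centres and to switch and mature their antibodies. The repressor BCL6 directs this fate, TCF-1 (encoded by Tcf7) acts upstream of it, and the chemokine receptor CXCR5 and the costimulatory receptor ICOS are needed to reach and stay in the follicle. The cells help through CD40 ligand and IL-21, and their conjugates with B cells depend on SLAM family receptors and the adaptor SAP. In chronic GVHD such cells are known to act together with germinal centre B cells.

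C4 held 733 cells in the saline capture (204, 278 and 251 in the 3 pools), 189 at 5 mg/kg (67, 52 and 70) and 45 at 50 mg/kg (18, 11 and 16). The summed unique molecular identifiers (UMIs, 1 per captured transcript molecule) of a C4 pool were 524996 to 706370 in saline, 81149 to 110690 at 5 mg/kg and 26099 to 49634 at 50 mg/kg, so each value at 50 mg/kg rests on few molecules. The median C4 cell held 2475, 1506 and 2053 UMIs at saline, 5 and 50 mg/kg, against 3319, 4576 and 6033 in the other CD4 cells. In pool 2 at 5 mg/kg and in pools 2 and 3 at 50 mg/kg the C4 median was lowest against that of all CD4 cells of the pool, at a ratio of 0.312, 0.293 and 0.242. Mitochondrial transcripts took 2.32%, 5.72% and 4.86% of the UMIs of a C4 cell, as medians over cells, against 1.59%, 1.59% and 1.67% in the other CD4 cells. A TCR clonotype was recovered in 73.0% to 80.9% of C4 cells per saline pool, 26.9% to 36.5% at 5 mg/kg and 50.0% to 63.6% at 50 mg/kg, whereas 76.9% or more of the other CD4 cells of every CSA pool had one. Depth, mitochondrial share and clonotype recovery therefore moved with dose inside C4, and their part in the differences below was not tested.

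**Figure D1:**
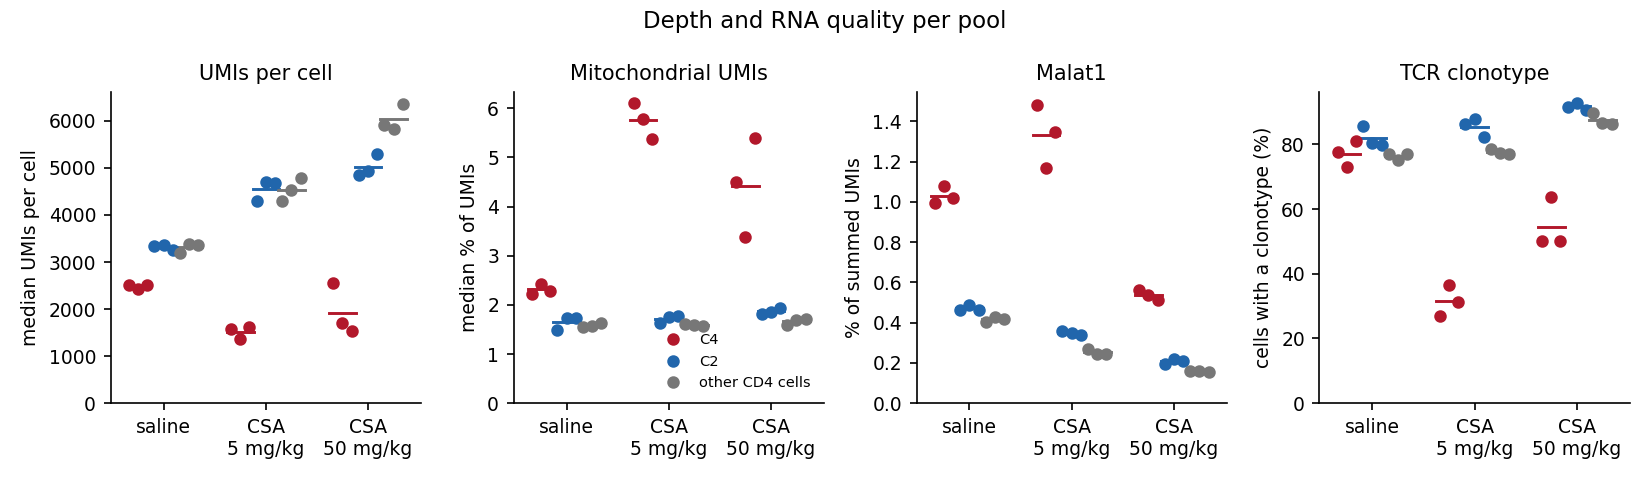
Median UMIs per cell, median percent of a cell's UMIs from mitochondrial genes, percent of summed UMIs from Malat1 and percent of cells with a TCR clonotype, for C4, C2 and the other CD4 cells of each pool by group. The C4 pools at 5 mg/kg lie lowest in clonotype recovery and highest in Malat1, and overlap with the C4 pools at 50 mg/kg in UMIs and mitochondrial share.

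C4 took up 18%, 18.8% and 17.4% of CD4 cells in the saline pools, 7.66%, 5.57% and 6.03% at 5 mg/kg and 1.82%, 1.09% and 1.5% at 50 mg/kg. No pool of a group overlapped with a pool of another. In cells of at least 2000 UMIs the share was 15.6% to 16.6% in saline, 0.769% to 1.92% at 5 mg/kg and 0.508% to 1.24% at 50 mg/kg, so the CSA groups overlapped there while both stayed below saline. The exact trend test over the 9 pools (Jonckheere-Terpstra, two-sided, 1680 assignments) gave p = 0.00119, the smallest it can give, and 0.00238 after Benjamini-Hochberg adjustment over 4 tests. These are shares of captured cells, not numbers of cells in the spleen. Among cells with a clonotype alone, the C4 share was 18%, 18.4% and 18.1% in saline, 2.75%, 2.72% and 2.56% at 5 mg/kg and 1.02%, 0.803% and 0.875% at 50 mg/kg, so at 5 mg/kg the share was less than 3% where the clonotype was required.

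The neighbour closest to C4 was C2, with 1365 cells, which the study called precursor-like. The deposited table holds 3 other clustering resolutions, and at the coarsest of them 995 of 1003 C4 cells (TEa cells included) shared a cluster with 1385 C2 cells, while at the finer ones 996 and 998 of the 1003 stayed together with at most 9 C2 cells. Of the cells in C2 and C4 together, C4 made up 62.1% ± 2.27 (SD, n = 3 pools) in saline, 23.8% ± 1.49 under 5 mg/kg and 13.2% ± 4.07 under 50 mg/kg. The mean at 50 mg/kg was 48.9 percentage points below saline, with exact trend p = 0.00119, again the smallest possible, and adjusted p = 0.00238. The value at 5 mg/kg depended on the cells counted. In cells of at least 2000 UMIs it was 3.41% to 6.73% beside 4.14% to 12.6% at 50 mg/kg, with a difference of -51.2 points between 50 mg/kg and saline and exact trend p = 0.123. In cells with a clonotype it was 9.63% to 11% beside 5.93% to 10.6%, so the CSA groups overlapped in both settings, while saline was at 55.6% or more.

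**Figure D2:**
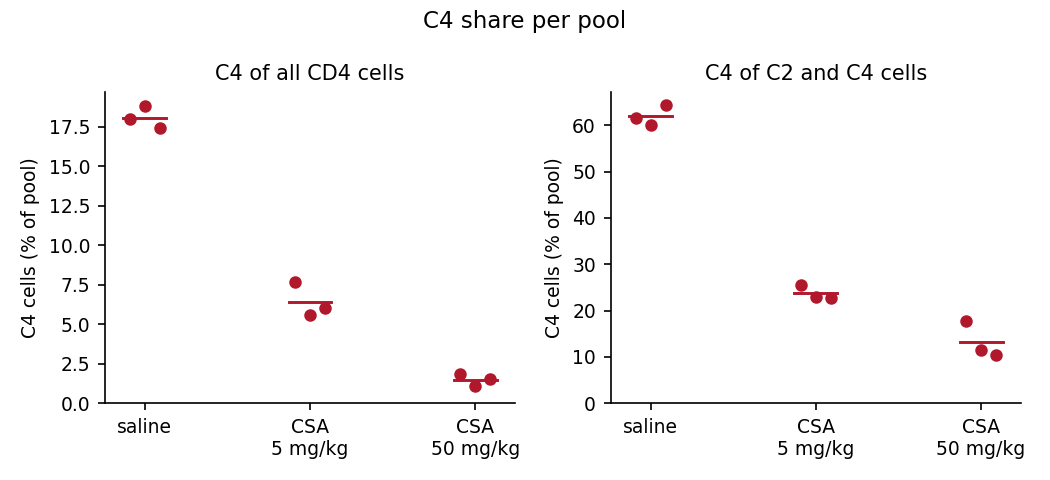
C4 cells as a percent of all CD4 cells (left) and of C2 and C4 cells together (right) by group, with 1 point per pool and a line at the mean of 3 pools. The saline pools lie above all CSA pools in both panels, and in the left panel the 3 groups do not overlap.

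The markers that define TFH cells set C4 apart in the saline pools. Levels are given as CPM, the UMIs of a gene per 1000000 UMIs of the summed cells, in the order of the 3 pools. Bcl6 stood at 87.6, 84.9 and 87.7 CPM in C4 and at 12.1, 20.8 and 15.7 CPM in the other CD4 cells, and the pools did not overlap. Cxcr5 stood at 204, 234 and 215 CPM in C4, 128, 112 and 72.1 CPM in C2 and 5.84, 7.71 and 7.84 CPM in C0, the largest CD4 cluster. Tcf7 stood at 800, 828 and 714 CPM in C4 against 486, 509.6 and 401 CPM in C2. Icos reached 1328, 1046 and 1259 CPM in C4 against 652, 600.5 and 596 CPM in C2. The saline C4 pools were above both C2 and C0 for each of these 4 genes, so the label fits the markers in saline.

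Bcl6 and Cxcr5 at 5 mg/kg still separated C4 from the other cells, with Cxcr5 below its saline levels. Tcf7 did not separate C4 from C2 there, since pool 2 of C4 lay below the C2 pools. Bcl6 stood at 54.3, 98.6 and 45.2 CPM in C4 against 12.8, 12.3 and 11.4 CPM in the other CD4 cells, and Cxcr5 at 154, 136 and 136 CPM against 31.1, 29.8 and 28.3 CPM. The markers did not bear the label out at 50 mg/kg. Bcl6 had no UMI in any C4 pool, and Cxcr5 was at 0, 38.3 and 0 CPM, from 1 UMI in all. Over all CD4 cells Bcl6 was at 3.67, 3.55 and 2.90 CPM, below the 27.4 CPM that 3 UMIs make in C4. Its 0 therefore cannot set C4 apart from the other cells or level with them. Tcf7 was at 101, 76.6 and 89.3 CPM in C4, below the 279, 211 and 285 CPM of C2, and Icos at 161, 115 and 417 CPM was not separated from the 207, 284 and 255 CPM of C2. Beside all CD4 cells, at 48.6, 46.1 and 62.7 CPM, Tcf7 stayed higher in C4 in every pool, as did Il6ra, from 12 UMIs. Icos did not, beside 156, 135 and 177 CPM. The 45 cells at 50 mg/kg are therefore called C4 here and not TFH cells.

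**Figure D3:**
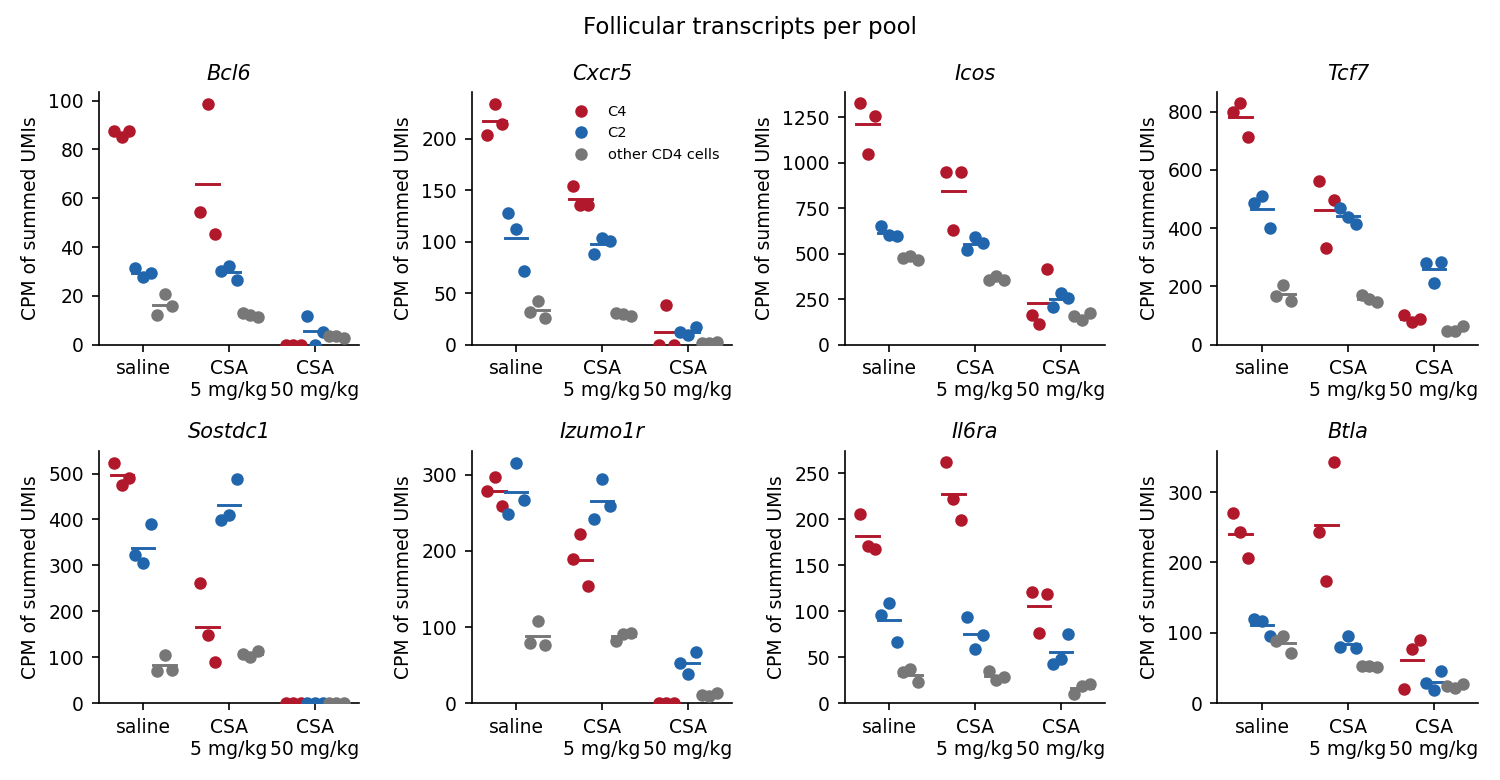
CPM per pool (points) by group for Bcl6, Cxcr5, Icos, Tcf7, Sostdc1, Izumo1r, Il6ra and Btla in C4, in C2 and in all CD4 cells outside C4 (C2 included). In saline the C4 pools lie above the other CD4 cells for each gene, and at 50 mg/kg C4 lies below C2 for Tcf7 and at 0 for Bcl6, Sostdc1 and Izumo1r.

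With depth matched, the share of cells with at least 1 Cxcr5 or Bcl6 UMI gave the same order as the levels in saline and at 5 mg/kg. After each cell was thinned to 1000 UMIs, 16.1%, 13.7% and 2.56% of C4 cells at saline, 5 and 50 mg/kg held a Cxcr5 UMI (35.1%, 17.5% and 2.22% unthinned). C0, where Cxcr5 was near 0, gave 0.576%, 0.465% and 0% thinned to the same depth. C2 gave 8.67%, 8.40% and 1.30% (25.6%, 31.0% and 4.87% unthinned). Unthinned, C2 thus lay above C4 at 5 mg/kg for Cxcr5, and it did so for Bcl6, at 11.5%. Bcl6 was seen in 7.09%, 6.56% and 0% of thinned C4 cells (16.2%, 8.47% and 0% unthinned) and in 0.768%, 0.698% and 0% of C0. The 0 of 39 thinned C4 cells at 50 mg/kg with a Bcl6 UMI allow a share of up to 7.69% at this depth. That limit counts the cells of all pools together and leaves out the spread between pools. Thinning left out 6 C4 cells at each CSA dose that held fewer UMIs and none in saline.

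Beyond these markers, the genes with the largest excess of C4 over the other CD4 cells in saline were named by the median log2 ratio over the 3 pools. They were led by Nav2 at 3.08, encoding a cytoskeleton-associated protein, and Gpm6b at 3.03, a membrane glycoprotein. Next came Sostdc1 at 2.76, a secreted antagonist of BMP and Wnt signalling, and Cxcr5 at 2.65. Il6ra at 2.57 and Il6st at 2.44 encode both chains of the receptor for IL-6, a cytokine that promotes the TFH fate. Cd22 at 2.51 encodes a lectin best known from B cells, and Ephx1 at 2.49 an epoxide hydrolase. Ispd at 2.58, Bcl6 at 2.40, Aff3 at 2.34, Rflnb at 2.28, Nsg2 at 2.27, Thada at 2.24 and Tcf7 at 2.23 completed the list.

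Genes of effector cells and of the cell cycle stood lowest in C4. The log2 ratio over the saline pools was -3.85 for Adam8, a metalloprotease, -3.09 for the chemokine Ccl1, -3.04 for the chemokine receptor Ccr2 and -2.77 for Cxcr6, a receptor of effector T cells in tissue. The mitotic genes Cenpf, Mki67 and Kif4 stood at -2.87, -2.75 and -2.49. Csf1, a myeloid growth factor, stood at -2.48, Dennd5a at -2.41 and Sytl2 at -2.40. C4 was higher than the other CD4 cells in all 3 saline pools for 1834 of 4295 genes with enough UMIs, or 42.7%, and lower in all 3 for 1416, or 33.0%.

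Against that background, all 17 follicular receptors and adaptors with enough UMIs were higher in C4 in every saline pool, at a median log2 ratio of 1.44 beside 0.07 over all 4295 genes. Of 9 follicular transcription factors 7 were higher and 1 lower (median 1.01). Of 14 Th1 and effector genes 1 was higher and 11 were lower (median -0.73), and all 10 cell cycle genes were lower (median -1.22). Another list held genes induced by TCR signalling and a few of the calcineurin and NFAT pathway, which CSA blocks. Of 15 such genes 9 were higher and 4 lower (median 0.52). Genes of the naive and memory state were higher for 6 and lower for 1 of 8 (median 0.78), while repressors and antagonists of the TFH fate were higher for 4 and lower for 7 of 12 (median -0.39). Glycolysis genes were lower for 9 of 12 and higher for 2, oxidative phosphorylation genes lower for 62 and higher for 0 of 71, and ribosomal protein genes lower for 81 of 83 and higher for 0. These lists overlap with genes that shaped the clusters, so the counts describe C4 and test nothing.

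The ratio of C4 to the other CD4 cells also moved with the length of the gene. Over the saline pools its median was -0.25 to -0.23 on the log2 scale for genes spanning under 10 kb and 0.49 to 0.54 for those over 100 kb. The same medians at 5 mg/kg were -0.53 to -0.48 and 1.14 to 1.32, and at 50 mg/kg -0.41 to -0.18 and 0.58 to 0.90. Nav2, Ispd, Thada and Aff3 are long genes, most ribosomal protein genes are short, and Malat1, a long noncoding RNA retained in the nucleus, took 1.03%, 1.35% and 0.541% of C4 UMIs at saline, 5 and 50 mg/kg against 0.418%, 0.252% and 0.158% elsewhere. The fitted change within C4 at 50 mg/kg moved with length as well, from a median of 0.34 under 10 kb to -0.44 over 100 kb. The part of gene length in these values was not tested.

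Within C4, edgeR's quasi-likelihood test compared the doses over the 9 pools for the 2558 genes that passed a filter on low counts. A gene could pass it through the saline pools alone, and a gene that passed in this way had to be lower elsewhere. Both CSA groups were compared with the same saline pools. Under 5 mg/kg 132 genes (5.16%) rose and 66 (2.58%) fell at an adjusted p below 0.05. Under 50 mg/kg 260 (10.2%) rose and 217 (8.48%) fell, and from 5 to 50 mg/kg 193 (7.54%) rose and 186 (7.27%) fell. The direction of these totals moved with the scaling: by library size instead of TMM, 88 rose and 168 fell at 5 mg/kg, and 175 rose and 355 fell at 50 mg/kg, with the median of all genes at -0.12 and -0.30 log2 against saline. Changes below are given on the TMM scale with their standard error (SE).

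Of the transcription factors, Tcf7 was the 1 of 7 tested that fell at 5 mg/kg. C4 held 561, 333 and 497 CPM at 5 mg/kg and 101, 76.6 and 89.3 CPM at 50 mg/kg, against at least 714 CPM in every saline pool. The 3 groups did not overlap. The log2 change was -0.61 ± 0.14 at 5 mg/kg (edgeR adjusted p = 0.00209) and -2.93 ± 0.35 at 50 mg/kg (edgeR adjusted p = 2.15e-10). The call at 5 mg/kg was lost in cells of at least 2000 UMIs, at -0.59, and in cells with at most 4% mitochondrial UMIs (low mitochondrial share, a setting chosen after seeing the data), at -0.81.

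Tox and Tox2, related DNA-binding factors that promote the TFH programme, fell at 50 mg/kg and did not pass at 5 mg/kg. Tox stood at 328, 310 and 292 CPM in saline, 353, 259 and 271 CPM at 5 mg/kg and 40.3, 38.3 and 59.5 CPM at 50 mg/kg, with a log2 change of -2.59 ± 0.47 at 50 mg/kg (edgeR adjusted p = 1.64e-05). Tox2 stood at 126, 143 and 183 CPM in saline and at 163, 86.3 and 63.2 CPM at 5 mg/kg. It had no UMI in C4 at 50 mg/kg, which with a floor of 3 UMIs over the group put it at least 5.55-fold lower than saline. Tox2 fell in the CD4 cells as a whole as well, at 50.9, 36.4 and 0.670 CPM at saline, 5 and 50 mg/kg. Together 3 of the 7 factors fell and 0 rose at 50 mg/kg, beside 8.48% and 10.2% of all genes (median -0.50 beside -0.07). Bcl6 did not pass the filter on low counts and was not tested within C4, and its level at 50 mg/kg, at 0 UMIs, was at least 3.16-fold lower than in saline.

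Of the 18 follicular receptors and adaptors 16 were tested within C4, and none passed at 5 mg/kg (median -0.10). Their share of 0 is to be read beside the 5.16% and 2.58% of all genes that rose and fell. Icos, at 949.6, 628 and 949 CPM at 5 mg/kg, was below every saline pool, at a log2 change of -0.38 ± 0.13 with edgeR adjusted p = 0.0534. Cxcr5 was likewise below every saline pool, at -0.51 ± 0.23 with edgeR adjusted p = 0.186. Under library size scaling 4 of the 16 fell, so the absence of calls at 5 mg/kg depended on the scaling.

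Under 50 mg/kg 9 of the 16 fell and none rose, beside 8.48% of all genes that fell, with a median of -1.58 beside -0.07. Icos changed by -2.24 ± 0.28 (edgeR adjusted p = 8.81e-10). Cxcr5, with 1 UMI in the group, stood at a ratio of 0.0418 to saline, with a 95% counting interval of 0.00106 to 0.234. Pdcd1, which encodes the inhibitory receptor PD-1 that is high on TFH cells, had 352, 299 and 275 CPM in saline, 298, 222 and 370.4 CPM at 5 mg/kg and 20.1, 0 and 0 CPM at 50 mg/kg. The single UMI gave a ratio of 0.0300 (counting interval 7.58e-04 to 0.168). Pdcd1 also fell over all CD4 cells, which stood at 264, 219 and 18.7 CPM at saline, 5 and 50 mg/kg. Izumo1r, a folate receptor family member found on TFH and regulatory T cells, stood at 278, 297 and 259 CPM in saline and 189.9, 222 and 154 CPM at 5 mg/kg. It was at 0 UMIs at 50 mg/kg, at least 10.1-fold lower. All CD4 cells together held 113, 90.5 and 11.2 CPM of Izumo1r at saline, 5 and 50 mg/kg, so this fall too was not limited to C4.

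Slamf6, Sh2d1a and Btla fell at 50 mg/kg as well, and whether their falls differ in size from those above was not tested. Slamf6, a SLAM family receptor, stood at 935, 793 and 862 CPM in saline, 814, 529.9 and 903 CPM at 5 mg/kg and 363, 345 and 268 CPM at 50 mg/kg, a log2 change of -1.23 ± 0.25 (edgeR adjusted p = 8.6e-05). Sh2d1a, which encodes SAP, stood at 276, 273 and 272 CPM in saline, 189.9, 185 and 126 CPM at 5 mg/kg and 40.3, 115 and 59.5 CPM at 50 mg/kg, a log2 change of -1.93 ± 0.44 (edgeR adjusted p = 0.000651). The groups of Sh2d1a did not overlap, and its adjusted p at 5 mg/kg was 0.0548. Btla, an inhibitory receptor that binds HVEM, changed by -1.96 ± 0.50 (edgeR adjusted p = 0.00241). Without pool 1 at 50 mg/kg, the pool with the most C4 cells at that dose, Sh2d1a gave adjusted p = 0.0507 and Btla 0.136.

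Il6ra did not pass at 50 mg/kg. C4 held 206, 171 and 168 CPM in saline, 262, 222 and 199 CPM at 5 mg/kg and 121, 76.6 and 119 CPM at 50 mg/kg, and the log2 change of -0.56 ± 0.41 had edgeR adjusted p = 0.382. Its partner chain Il6st was at 160, 142 and 134 CPM in saline and 20.1, 0 and 29.8 CPM at 50 mg/kg, and fell, at a ratio of 0.127 from 2 UMIs (counting interval 0.0153 to 0.463). P2rx7, an ATP-gated channel that limits TFH cells, stood at 162, 185 and 202 CPM in saline and 60.4, 0 and 0 CPM at 50 mg/kg, a ratio of 0.148 from 3 UMIs (counting interval 0.0305 to 0.438). All CD4 cells together held 63.8, 37.0 and 3.16 CPM of P2rx7 at saline, 5 and 50 mg/kg, so it fell there too. The remaining receptors did not pass at 50 mg/kg, at a log2 change of -0.08 for Cd84 and -0.21 for Ly9, both SLAM family members, -0.22 for the costimulator Cd28, -0.19 for the cytokine receptor Il21r, -0.22 for Gpr183, an oxysterol receptor, and -0.79 for Cd40lg, the ligand of CD40 on B cells. From 5 to 50 mg/kg 8 of the 16 fell and none rose, beside 7.27% and 7.54% of all genes (median -1.24 beside -0.07).

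**Figure D4:**
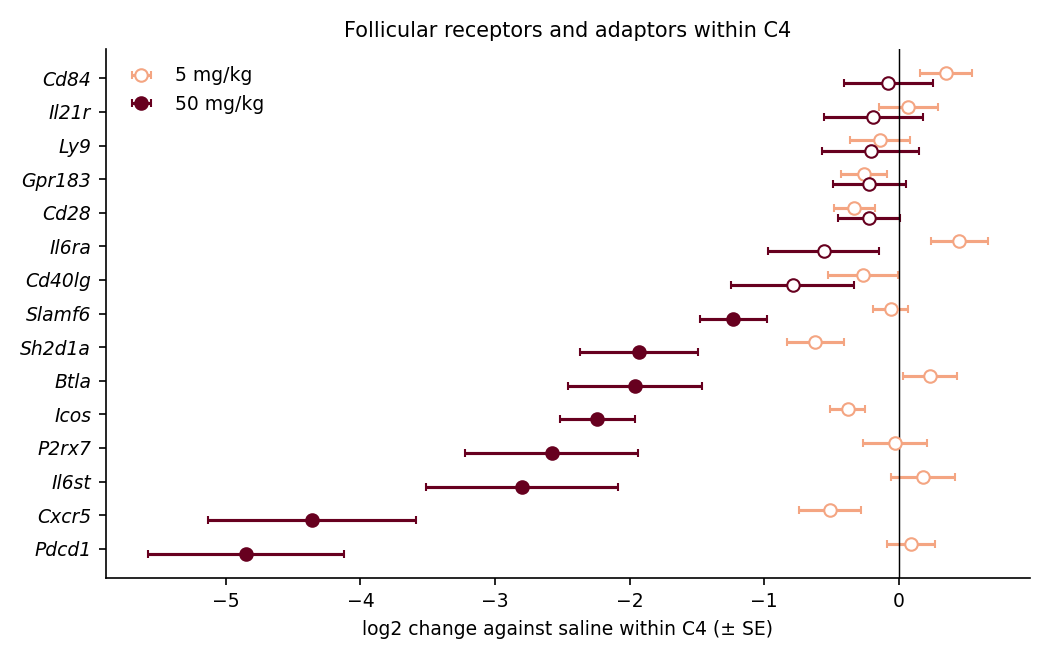
Log2 change against saline within C4 (points, with SE as bars) at 5 and 50 mg/kg for 15 tested follicular receptors and adaptors, with filled points where the adjusted p was below 0.05. No point is filled at 5 mg/kg, 8 are filled at 50 mg/kg, and Izumo1r, at 0 UMIs at 50 mg/kg, is left out.

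Of the secreted follicular products, Sostdc1 fell at both doses. It stood at 524, 474 and 491 CPM in saline, 262, 148 and 90.3 CPM at 5 mg/kg and 0 in every pool at 50 mg/kg. The groups did not overlap. Under 5 mg/kg it was 2.73-fold lower, a log2 change of -1.45 ± 0.20 (edgeR adjusted p = 7.84e-08), and under 50 mg/kg it was at least 18-fold lower. In cells of at least 2000 UMIs the change at 5 mg/kg was -0.67 and did not pass. In C2 it stood at 322, 305 and 389.5 CPM in saline and 398, 409.7 and 489 CPM at 5 mg/kg, so at 5 mg/kg C4 lay below C2. The change in C4 less that in the other CD4 cells was -2.30 ± 0.20 at 5 mg/kg (edgeR adjusted p = 8.92e-27), and -1.94 against C2 alone.

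Il21, the cytokine by which TFH cells drive germinal centre B cells, stood at 87.6, 113 and 102 CPM in saline and 109, 123 and 90.3 CPM at 5 mg/kg, and these groups overlapped. It fell at 50 mg/kg to 0, 0 and 29.8 CPM, a ratio of 0.0894 from 1 UMI (counting interval 0.00225 to 0.504), with edgeR adjusted p = 0.00898. Without pool 1 at 50 mg/kg the adjusted p was 0.16. Il21 fell in the CD4 cells as a whole as well, at 60.6, 33.5 and 2.25 CPM at saline, 5 and 50 mg/kg. The list of secreted products held Sostdc1 and Il21 as its 2 tested members of 6. Its median at 50 mg/kg was -6.62, or -3.72 with Sostdc1 at its bound.

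Cxcr5 and Bcl6 transcripts fell with dose in the CD4 compartment as a whole. At 5 mg/kg more of those left lay in C2 than did in saline. Over all CD4 cells Cxcr5 stood at 57.3, 31.8 and 1.87 CPM at saline, 5 and 50 mg/kg, and Bcl6 at 25.6, 13.1 and 3.35 CPM. C4 held 12.7%, 2.02% and 0.523% of all CD4 UMIs at saline, 5 and 50 mg/kg, and C2 10.7%, 19.6% and 7.80%. Of the Cxcr5 UMIs (862, 476 and 39 in all) C4 held 48.6%, 9.03% and 2.56%, while C2 held 19.4%, 60.3% and 56.4%. For Bcl6, from 385, 196 and 70 UMIs, C4 held 43.1%, 9.69% and 0%, and C2 12.2%, 43.9% and 12.9%. C2 held 11.6%, 29.1% and 12.5% of Icos UMIs, 11.3%, 29.0% and 10.6% of Btla and 18.1%, 36.6% and 10.2% of Sh2d1a. At 50 mg/kg the C2 share of Bcl6, Icos, Btla and Sh2d1a was thus near or below that in saline. Over all CD4 cells Sh2d1a stood at 209, 210 and 148 CPM and did not fall at 5 mg/kg. At 50 mg/kg the Cxcr5 share of C2 came from 22 UMIs, at 45.5%, 44.4% and 68.4% per pool, so its place above 50% rested on pool 3.

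Sostdc1 moved further in the same way. From 2045 UMIs in saline C4 held 46.3% and C2 26.5%, and from 1619 UMIs at 5 mg/kg C4 held 3.15% and C2 79.2%. No CD4 cell at 50 mg/kg held a Sostdc1 UMI. C4 held 39.4%, 5.92% and 0.905% of Tcf7 UMIs and 45.9%, 14.0% and 3.32% of Il6ra UMIs, whereas C2 held 52.7% of Tcf7 and 44.7% of Il6ra at 5 mg/kg. Izumo1r lay in C4 for 31.3%, 4.13% and 0% and in C2 for 26.6%, 57.2% and 38.7% of its UMIs. Pdcd1 was spread wider, with 14.7%, 2.81% and 0.256% of its UMIs in C4. These shares depend on cell numbers and on RNA per cell together, which cannot be told apart in them.

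**Figure D5:**
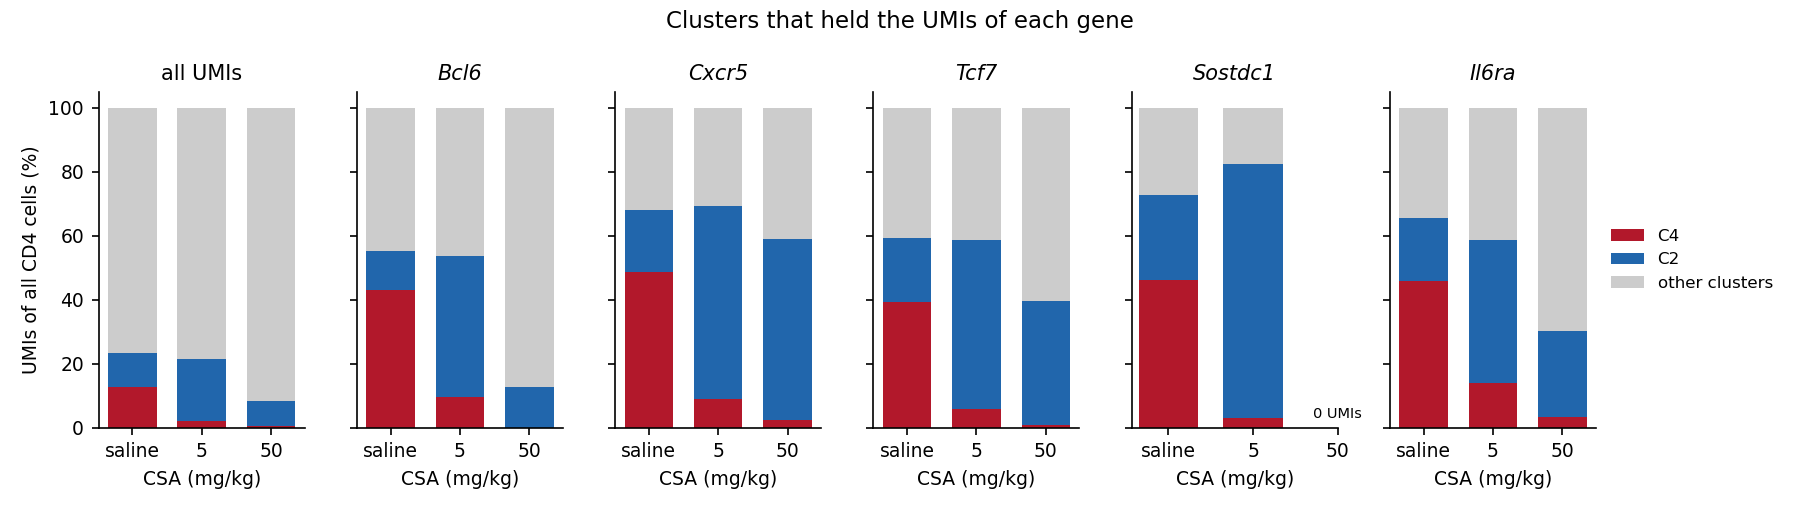
Percent of the CD4 compartment's UMIs that lay in C4, in C2 and in other CD4 cells by group, for all UMIs and for Bcl6, Cxcr5, Tcf7, Sostdc1 and Il6ra (Sostdc1 had no UMI at 50 mg/kg). The C4 segment of each marker is large in saline and small at both doses, and at 5 mg/kg the C2 segment holds 43.9% to 79.2% of the marker UMIs.

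Whether C4 changed more than the other CD4 cells was tested as the difference of the changes, with the pool as a block and 10329 genes. Under 5 mg/kg the change in C4 was higher for 251 genes (2.43%) and lower for 712 (6.89%), and at 50 mg/kg higher for 20 (0.194%) and lower for 459 (4.44%). The median gene stood at -0.12 and -0.65 on this TMM scale. The split turned with the scaling: by library size it was 760 higher to 242 lower at 5 mg/kg, but 80 to 22 at 50 mg/kg, with the median at 0.25 and 0.00, while DESeq2 gave 246 and 230, and 38 and 38. The counts that follow are to be read with that shift.

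Of 18 follicular receptors and adaptors 8 fell more in C4 than elsewhere at 5 mg/kg and 6 did so at 50 mg/kg, while none fell less (medians -0.33 and -1.01). DESeq2 left 1 of them at each dose, and library size scaling gave 1 higher and 1 lower at 5 mg/kg and 0 at 50 mg/kg. Tcf7 differed by -0.95 at 5 mg/kg (edgeR adjusted p = 1.44e-08) and by -2.0 at 50 mg/kg (edgeR adjusted p = 5.46e-05), and Icos by -0.47 (edgeR adjusted p = 0.00288) and -1.45 (edgeR adjusted p = 3.67e-05). Cxcr5 differed by -0.82 at 5 mg/kg (edgeR adjusted p = 0.0321), whereas at 50 mg/kg, where it fell in all cells, -1.03 did not pass (edgeR adjusted p = 0.755). Of 11 follicular transcription factors 3 fell more in C4 at 5 mg/kg, 2 did at 50 mg/kg, and none fell less. DESeq2 left 1 of these at 5 mg/kg and 0 for the higher dose, and library size scaling gave 2 higher and 2 lower at 5 mg/kg and 0 at 50 mg/kg, so the calls of Tcf7 and Icos at 50 mg/kg were lost with either.

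Of the Th1 and effector genes 4 of 12 tested rose at 5 mg/kg and none fell, beside 5.16% and 2.58% of all genes (median 0.46). Gzma, a granule protease, stood at 293, 349.7 and 311 CPM in saline and 443, 407 and 569 CPM at 5 mg/kg, a log2 change of 0.69 (edgeR adjusted p = 0.00125) without overlap. Cxcr6 rose from 47.6, 55.2 and 57.0 to 99.5, 123 and 108 CPM, a log2 change of 1.12 (edgeR adjusted p = 0.0293). It passed the filter on low counts through the 5 mg/kg pools alone. Gzmb, another granule protease, rose by 0.42 (edgeR adjusted p = 0.0301), and Bhlhe40, a transcription factor of cytokine-producing T cells, by 0.74 (edgeR adjusted p = 0.0498). Leaving out 1 pool at a time lost the call of Bhlhe40 in 6 of 9 fits, of Gzmb in 5 of 9 and of Cxcr6 in 5 of 8. Among deeper cells (at least 2000 UMIs) 0 of 15 tested genes of this list passed at 5 mg/kg, with Gzmb at -0.46, and with low mitochondrial share 1 fell and none rose.

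Under 50 mg/kg 4 of the 12 effector genes rose and 3 fell, beside 10.2% and 8.48% of all genes (median 0.05). Ly6c2, a surface protein of activated and memory T cells, stood at 143, 133 and 136 CPM in saline, 189.9, 246 and 145 CPM at 5 mg/kg and 1471, 2299 and 595 CPM at 50 mg/kg, 11.3-fold higher at the highest dose (log2 3.50 ± 0.21, edgeR adjusted p = 2.77e-23). It rose in the neighbouring clusters too, to 1574, 1183 and 887 CPM in C2 and 2344, 2609 and 2045 CPM in C0, from at most 125 and 275 CPM in saline. The chemokine Ccl5 rose by 1.22 (edgeR adjusted p = 1e-09), the granule protein Nkg7 by 0.58 (edgeR adjusted p = 0.00924) and Ctla2a, a protease inhibitor, by 2.71 (edgeR adjusted p = 0.000225). Gzma fell to a ratio of 0.0856 from 3 UMIs (counting interval 0.0176 to 0.251), and Gzmb fell by 0.99 (edgeR adjusted p = 0.0049), while in C0 Gzmb stood at 1600.5, 1527 and 1446 CPM against at most 880.2 CPM in saline. Il18r1, a receptor for IL-18, fell by 2.16 (edgeR adjusted p = 0.00438).

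The list of TCR-induced genes, with a few of the calcineurin and NFAT pathway, had 10 tested members. Of these 1 rose and 1 fell at 5 mg/kg, beside 5.16% and 2.58% of all genes (median 0.16). Lag3, an inhibitory receptor, rose by 0.71 (edgeR adjusted p = 0.0258), and Tigit, another, fell by 0.64 (edgeR adjusted p = 0.0147). DESeq2 called neither, leaving out 1 pool lost Lag3 in 5 and Tigit in 3 of 9 fits, and with low mitochondrial share their signs turned, to -0.15 and 0.05. Under 50 mg/kg 5 of the 10 fell and none rose (median -1.0), beside 8.48% of all genes. Nfatc1, itself an NFAT factor, stood at 583, 494 and 508 CPM in saline, 678, 567 and 533 CPM at 5 mg/kg and 101, 115 and 357 CPM at 50 mg/kg, a log2 change of -1.37 (edgeR adjusted p = 0.000651), which was -0.94 with adjusted p = 0.105 without pool 1 at that dose. Tigit fell to a ratio of 0.0427 from 2 UMIs (counting interval 0.00517 to 0.155). The inhibitory receptor Ctla4, the Ikaros family factor Ikzf2 and Tnfsf8, the CD30 ligand, fell by 2.0, 2.11 and 1.32 (edgeR adjusted p = 0.00983, 0.000431 and 0.00464).

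Of the repressors and antagonists of the TFH fate 10 were tested. None rose at 5 mg/kg and 2 fell, beside 5.16% and 2.58% of all genes, Klf2 by 0.47 (edgeR adjusted p = 0.0375) and Stat5b by 0.99 (edgeR adjusted p = 0.0318). DESeq2 called 0 of the 10, leaving out 1 pool lost Klf2 in 4 and Stat5b in 5 of 9 fits, and Klf2 was at 0.05 with low mitochondrial share. Klf2 encodes a factor that keeps T cells circulating and opposes TFH differentiation, and Stat5b transmits IL-2 signals. Stat5b passed the filter on low counts through the saline pools alone, so its fall at either dose was a condition of being tested. The level of Klf2 at 50 mg/kg was 725, 1111 and 893 CPM against 653, 616 and 596 CPM in saline, a log2 change of 0.64 (edgeR adjusted p = 0.00704). Selplg, a selectin ligand, rose by 0.75 (edgeR adjusted p = 0.000618) and Runx3, a factor of cytotoxic T cells, by 1.21 (edgeR adjusted p = 0.0111), while Stat5b fell to a ratio of 0.184 from 3 UMIs (counting interval 0.0378 to 0.545). Of 8 naive and memory genes tested 1 fell at 5 mg/kg and none rose, and this was Klf2, already counted above. At 50 mg/kg 2 rose, Klf2 among them, and none fell, beside 10.2% and 8.48% of all genes (median 0.37 beside -0.07).

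Genes of the cell cycle were already low in C4. At 5 mg/kg 1 of 5 tested rose, beside 5.16% of all genes. This was Top2a, a topoisomerase of dividing cells, from 122, 166 and 158 to 226, 259 and 262 CPM (log2 0.82, edgeR adjusted p = 0.00615). At 50 mg/kg 2 of the 5 fell, beside 8.48% of all genes (median -1.24), with Top2a at a ratio of 0.0606 from 1 UMI (counting interval 0.00153 to 0.341) and Pclaf, a replication factor, at 0.0509 from 1 UMI (counting interval 0.00129 to 0.286). Rrm2, the ribonucleotide reductase subunit, and Cdk1 were at 0 UMIs in C4 at 50 mg/kg, at least 3.35-fold and 1.45-fold below saline, whereas the other CD4 cells held 236, 225 and 227 CPM of Rrm2 at that dose. C2 held 11.9, 6.87 and 12.9 CPM of Rrm2, so it too lay far below the rest.

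Of 11 tested glycolysis genes 3 fell at 5 mg/kg, beside 2.58% of all genes, Aldoa by 0.50, Tpi1 by 0.92 and Pgam1 by 0.88 (edgeR adjusted p = 0.0427, 0.0484 and 0.0181). DESeq2 called 0 of the 11, and leaving out 1 pool lost Aldoa in 5, Tpi1 in 7 and Pgam1 in 3 of 9 fits. At 50 mg/kg 3 fell and 1 rose (median -0.52), the latter Gapdh at 0.70 (edgeR adjusted p = 0.0341), whose call was lost without any 1 of 5 pools. Hif1a, which drives glycolytic genes, stood at 701, 590.3 and 631 CPM in saline, 669, 431 and 569 CPM at 5 mg/kg and 242, 115 and 268 CPM at 50 mg/kg, a log2 change of -1.38 (edgeR adjusted p = 0.000128). Of 65 tested oxidative phosphorylation genes 8 rose and 1 fell at 5 mg/kg (median 0.00), and 21 rose and none fell at 50 mg/kg (median 0.57). Of 80 ribosomal protein genes 28 rose at 5 mg/kg and 67 rose at 50 mg/kg, while none fell (medians 0.24 and 0.72). The shares of all genes that rose were 5.16% and 10.2%. Their share of C4 UMIs was 12.4%, 13.8% and 18.6% at saline, 5 and 50 mg/kg, below the 15.1%, 22.8% and 20.5% of the other CD4 cells and the 24.4%, 28.4% and 26.8% of C2.

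The genes with the largest changes at 5 mg/kg were mostly not TFH genes. Among the 10 that rose most, S100a8 and S100a9, calcium-binding proteins of neutrophils and monocytes, rose by 2.26 ± 0.32 (edgeR adjusted p = 5.17e-08) and 1.78 (edgeR adjusted p = 1.36e-05). The myeloid markers, summed, stood at 469.8 to 534 CPM in C4 at 5 mg/kg, 211 to 267 CPM in saline and 238 to 383 CPM at 50 mg/kg, against 292 to 362 CPM in the other CD4 cells at 5 mg/kg. Another 5 were mitochondrial transcripts, among them mt-Co3, which stood at 3893, 3916 and 3810.5 CPM in saline and 11304, 10598 and 9197 CPM at 5 mg/kg (log2 1.52 ± 0.12, edgeR adjusted p = 8.45e-18), and mt-Nd3, at 2.12 (edgeR adjusted p = 3.83e-15). The ribosomal protein genes Rpl38 and Rps29 rose by 1.41 and 1.37 (both edgeR adjusted p = 5.17e-17), and Hivep3, a zinc finger protein, was the tenth. The part of the rise in mitochondrial and myeloid transcripts in the other changes at 5 mg/kg was not tested. Sostdc1, Plac8 at -1.32 (edgeR adjusted p = 0.0199) and Slfn5 at -1.27 (edgeR adjusted p = 0.00108) were among the 10 that fell most, beside Yme1l1, Utp3, Hnrnph2, Arhgap1, Lipa, Gm2a and Actn1. Plac8, Yme1l1, Utp3 and Hnrnph2 passed the filter on low counts through the saline pools alone, so for them a fall was a condition of being tested. Slfn5 and Actn1 would not have passed it without the saline pools either.

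At 50 mg/kg Lmna, which encodes lamin A of the nuclear envelope, rose most. It stood at 0, 2.83 and 2.92 CPM in saline and 423, 153 and 179 CPM at 50 mg/kg, without overlap (log2 6.92 ± 0.74, edgeR adjusted p = 1.03e-11). Dapl1, a gene of naive and memory-like T cells, stood at 13.3, 8.49 and 13.1 CPM in saline and 181, 192 and 595 CPM at 50 mg/kg (log2 4.86 ± 0.54, edgeR adjusted p = 3.76e-11). Klrk1, encoding the receptor NKG2D, rose by 2.90 (edgeR adjusted p = 0.000185), the calcium-binding protein S100a4 by 2.20 (edgeR adjusted p = 3.21e-09) and the actin-capping protein Capg by 2.06 (edgeR adjusted p = 1.69e-07). Rps27rt, Ten1 and Ms4a4c were the others among the 10, with Ly6c2 and Ctla2a. Lmna rested on 21, 4 and 6 UMIs in the pools at 50 mg/kg, Klrk1 on 6, 4 and 6 and Ctla2a on 7, 5 and 5. They, with Dapl1, Rps27rt and Ten1, passed the filter on low counts through the 50 mg/kg pools alone. For these genes a rise was a condition of being tested. The 10 that fell most were Sostdc1, Izumo1r, Tox2, Pdcd1, Ifitm1, Rrm2 and the histone genes Hist1h2bm, Hist1h2ak, Hist2h2ac and Hist1h1d.

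Clonal expansion was read from the TCR clonotypes, where an expanded clone is a clonotype shared by at least 2 cells of a pool. Averaged over the 9 pools, 14.6% of C4 cells with a clonotype and 21.9% of the other CD4 cells lay in expanded clones, a difference of -7.29 percentage points (SD 8.77) that was lower in C4 in 8 of 9 pools. The exact sign-flip test (two-sided, 512 assignments) gave p = 0.0469, and 0.0625 after adjustment over 4 tests, which did not pass. The difference was -2.64 points with the cycling clusters left out (exact p = 0.383) and 4.14 points against C2 alone (exact p = 0.0664), so its sign depended on the cells it was set against. Across doses the share within C4 was 13.6% ± 3.94 in saline, 17.7% ± 13.6 under 5 mg/kg and 12.6% ± 1.59 under 50 mg/kg (SD, n = 3 pools), with exact trend p = 1.00.

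The 647 C4 cells with a clonotype held 630 clonotypes, a count that was not set beside that of another cluster. The paper reports high clonality for C4, as for C0 and C6, by Simpson's clonality index, which was not computed here. Expanded clones with at least 1 C4 cell numbered 61 in saline pools, 9 in those given 5 mg/kg and 3 in those given 50 mg/kg, and of these 73 only 9 lay wholly in C4. The 109 sisters of C4 cells outside C4 in saline lay in C0 for 33.0% and in C6 for 22.9%, beside 28.2% and 15% of all clonotyped cells, and in C2 for 10.1% beside 14.5%. The largest clone, of 26 cells in saline pool 1, had 10 cells in C0, 6 in C6, 4 in C5, 2 each in C2 and C7, and 1 each in C3 and C4. The sisters numbered 12 at 5 mg/kg and 3 at 50 mg/kg, too few to place.

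No clone held more than 2 C4 cells. The TCR sequences below are shown because these 3 clones, the largest with 2 C4 cells and sisters elsewhere, tie C4 to other clusters by a shared rearrangement. Each line gives the nucleotides of the third complementarity-determining region (CDR3) of 1 chain as deposited, 5′ to 3′, and the capitals mark the first codon, for the conserved cysteine, and the last codon, for phenylalanine or tryptophan. The clone of saline pool 2 with 6 cells had 2 in C4, 2 in C0 and 2 in C3, and carried a pair of alpha chains. The clone of saline pool 2 with 5 cells had 2 in C4, 2 in C0 and 1 in C1. The clone of saline pool 3 with 4 cells had 2 in C4 and 2 in C0.
Saline pool 2, 6 cells, alpha TRAV7D-2/TRAJ12: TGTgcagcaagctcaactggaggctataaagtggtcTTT
Saline pool 2, 6 cells, alpha TRAV6-5/TRAJ16: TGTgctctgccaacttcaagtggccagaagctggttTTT
Saline pool 2, 6 cells, beta TRBV3/TRBJ2-7: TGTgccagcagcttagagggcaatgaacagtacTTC
Saline pool 2, 5 cells, alpha TRAV6-3/TRAJ33: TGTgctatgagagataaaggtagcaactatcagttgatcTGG
Saline pool 2, 5 cells, beta TRBV13-1/TRBJ1-1: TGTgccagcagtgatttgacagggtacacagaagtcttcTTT
Saline pool 3, 4 cells, alpha TRAV6-5/TRAJ27: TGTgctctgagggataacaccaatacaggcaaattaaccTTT
Saline pool 3, 4 cells, beta TRBV31/TRBJ2-1: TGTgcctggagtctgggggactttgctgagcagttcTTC

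The sequences ran from 36 to 42 nucleotides, and each clone used a different V gene for its beta chain. Each of the 3 clones had 2 cells in C0, the largest CD4 cluster, and none had a cell in C2.

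Markers of other cell types were read in C4 for all groups. Naive T cell markers, summed, stood at 801 to 896 CPM in C4 in saline, 727 to 867 CPM at 5 mg/kg and 786 to 1577 CPM at 50 mg/kg, against 609 to 672, 479 to 551 and 408 to 524 CPM in the other CD4 cells. B cell markers, summed over 8 genes, with Cd79a at 0 UMIs, stood at 68.7 to 75.0 CPM in C4 in saline, 24.6 to 181 CPM at 5 mg/kg and 20.1 to 38.3 CPM at 50 mg/kg, against 137 to 181, 113 to 201 and 113 to 139.6 CPM in the other CD4 cells. Cd74, an MHC class II chaperone that other cells use too, gave 94, 27 and 3 of these UMIs. A narrower set of B cell genes, which includes Cd79b and Ms4a1, had a UMI in 14 C4 cells and in none at 50 mg/kg, and leaving these cells out kept the falls of Tcf7 and Sostdc1. Regulatory T cell markers stood at 270.5 to 326, 307 to 398 and 59.5 to 115 CPM in C4, against 215 to 221, 114 to 144 and 59.7 to 61.0 CPM elsewhere. Ikzf2, which is also on the list of TCR-induced genes, gave 508, 86 and 6 of these C4 UMIs, and Foxp3 gave 15, 2 and 0. Plasma cell markers stood at 78.1 to 83.3, 63.2 to 98.6 and 0 to 101 CPM in C4, against 75.2 to 84.0, 69.4 to 82.2 and 88.2 to 108 CPM elsewhere. Cd4 itself was read at 1124, 1182 and 1058 CPM in saline, 1158, 1282 and 1427 CPM at 5 mg/kg and 645, 805 and 1429 CPM at 50 mg/kg, in each pool above the other CD4 cells, which ranged from 309.7 to 719.6 CPM.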

How the data were processed

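Per the labels, spleen T cells were captured with 10x 5' single-cell chemistry, 1 capture per group, with hashtag antibodies marking 3 pools per group. Cell Ranger, Seurat 3.0.0 and build mm10 are named in the submitters' processing notes. The authors deposited UMI counts per cell as 10x matrices, and a cell table with clusters, hashtags, clonotypes, the mitochondrial share as a fraction of counts and module scores, after removing doublets, so no doublet caller was run. The captures shared 58 to 85 cell barcodes pairwise, and cells were matched by capture and barcode.

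UMI counts of C4 cells were summed per pool and tested with edgeR 4.0.16 (quasi-likelihood, TMM, filterByExpr, Benjamini-Hochberg adjustment, calls at adjusted p below 0.05) in R 4.3.3 on all 9 pools. The change in C4 less that in the other CD4 cells was fitted with the pool as a block. Shares were tested with exact permutation tests in Python 3.11.15 (numpy 2.4.6, pandas 2.3.3). Pools come from separate mice, 2 to a pool. Alternatives included DESeq2 1.42.0, library size scaling, no filter, other cell sets and leaving out each pool, and the fits were tested on simulated data. Intervals are 95%, exact, and cover counting error only, as does the floor of 3 UMIs.

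Named genes, each with a mean of at least 50 CPM, were the 15 highest and 10 lowest in C4 against the other CD4 cells by the median log2 ratio over the saline pools (same side in all 3), the 10 that rose and 10 that fell most at each dose among calls without overlap with the saline pools, and the 5 largest differences of the change each way, leaving out TCR and immunoglobulin segments, Xist and Y-linked genes. Markers and members of the gene lists were named as examples of lists counted whole. Cd8b1 and Cd4 were named after their values were seen. Genes with 1 to 3 UMIs at a dose are given as ratios. The members and lists were chosen with earlier results of these data known. A few genes measured in these files are not reported here.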

Additional observations from a re-analysis of the deposited data

Results flagged for a closer look

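The results below were picked out because the change in C4 differed from the change in the other CD4 cells by a test of that difference (edgeR, with the pool as a block), and are given as values in log2 units, C4 less the other cells. Under 5 mg/kg C4 changed upward against the other cells for Sytl2 (1.89), Hivep3 (1.69), Il2ra (1.68), Kif11 (1.67) and Knl1 (1.59). Sytl2, a granule transport gene, stood at 15.2, 21.2 and 10.2 CPM in C4 in saline and 45.2, 37.0 and 18.1 CPM at 5 mg/kg, while the other cells went from 84.4, 63.6 and 85.3 to 35.1, 36.5 and 30.5 CPM. Il2ra, the high-affinity chain of the IL-2 receptor, stood at 18.1, 86.3 and 81.3 CPM in C4 at 5 mg/kg, so pool 1 did not share in the rise.

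C4 changed downward at 5 mg/kg for Smim11 (-2.41), Mrps18a (-2.40), Sostdc1 (-2.30), Mrps17 (-2.20) and Plac8 (-2.13). Mrps18a and Mrps17, mitochondrial ribosomal proteins, stood at 42.5 to 49.5 and 41.9 to 51.1 CPM in C4 in saline and at 9.04 to 18.1 and 9.04 to 27.1 CPM at 5 mg/kg. Against C2 alone, Hivep3 and Sostdc1 kept their call and the other 8 lost it.

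Under 50 mg/kg C4 changed upward against the other cells for Sytl2 (2.36), Ccr2 (2.29), Hmgcs1 (1.72), Ahnak (1.72) and Spag9 (1.47). Ahnak, a large scaffold protein, stood at 568, 460.1 and 469 CPM in C4 in saline and 1169, 1035 and 1548 CPM at 50 mg/kg, whereas the other cells went from 1132, 958 and 1142 to 531, 524 and 511 CPM. Hmgcs1, an enzyme of sterol synthesis, stood at 30.7 to 49.5 and 89.3 to 161 CPM in C4. C4 changed downward for Cks1b (-11.21), Rrm2 (-10.98), Asf1b (-10.17), Racgap1 (-10.01) and Cdk1 (-9.92), genes of DNA replication and mitosis that had no UMI in C4 at 50 mg/kg, so these fitted values depend on the prior count and are no bound. All 10 lost their call at 50 mg/kg against C2 alone, where C2 held 2.38 to 7.77 CPM of Cdk1 beside 88.2 to 121 CPM in the other CD4 cells.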

How the results depend on the processing

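No paired analysis was possible because the hashtag numbers are not shared between groups. The counts of changed genes within C4 (198 at 5 mg/kg, 477 at 50 mg/kg and 379 between doses) became 93, 275 and 147 in cells of at least 2000 UMIs, where only pools 1 and 3 at 5 mg/kg and pool 1 at 50 mg/kg remained and the lone sample was assumed to vary like the others. In cells of at most 4% mitochondrial UMIs, an alternative chosen after seeing the data, 57 genes passed at 5 mg/kg, and no pool at 50 mg/kg had enough cells. Genes whose change in C4 differed from the other cells (963 and 479) came to 476 and 76 with DESeq2, 168 and 66 against C2 only, 446 in low-mitochondrial cells at 5 mg/kg, and 102 by library size, 177 without the filter and 154 outside the cycling clusters at 50 mg/kg. Leaving out 1 pool at a time gave 109 to 220, 248 to 495, 195 to 356, 551 to 1008 and 288 to 488 for these 5 counts, the 50 mg/kg and between-dose lows without pool 1 at 50 mg/kg, the difference lows without pool 3 at 5 mg/kg and pool 2 at 50 mg/kg. Without the filter the splits were 60 up and 89 down, 129 and 323, and 82 and 173. Signs turned for Gzmb (-0.46) at 5 mg/kg among the deeper cells, and in low-mitochondrial cells at 5 mg/kg for Klf2 (0.05), Bhlhe40 (-0.24), Lag3 (-0.15) and Tigit (0.05) and, against the other cells, Hivep3 (-0.25), Kif11 (-0.87) and Knl1 (-0.37). The fall of the C4 share ranged from -16.9 to -16.2 points and of the share of C2 and C4 from -51.2 to -47.4 points without 1 pool, and the latter was -51.2 (exact p = 0.123) in cells of at least 2000 UMIs. The clone share of C4 less the other cells was 4.14 against C2 only, -2.64 outside the cycling clusters, -4.10 (exact p = 0.477) in cells of at least 2000 UMIs and -9.10 (exact p = 0.0625) in low-mitochondrial cells, the last pair chosen after seeing the data. Without 1 pool it was -9.97 to -6.06 (unadjusted exact p from 0.00781 to 0.0938, above 0.05 in 8 of 9). Across doses the change of the clone share within C4 was -5.60 (exact p = 0.0190) for clones of at least 3 cells and -2.88 to 1.06 without 1 pool, the last without saline pool 1 (exact p = 0.611). Of the values of named genes under the alternatives 1351 kept direction and call, 266 lost the call and 8 turned, and the causes were not tested. Depth limits C4 at 50 mg/kg, where 3 UMIs are 27.4 CPM.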

Other observations

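TEa cells, which the groups above leave out, lay in C4 in saline and hardly at the CSA doses, as did the CD4 cells with a clonotype but no TEa mark. Of the TEa-marked CD4 cells 33 of 123 (26.8%) lay in C4 in saline, at 46.2%, 20.4% and 22.9% per pool, against 3 of 130 (2.31%) at 5 mg/kg and 0 of 27 at 50 mg/kg. With the 27 cells counted together this 0 allows a share of up to 11.1%, without the spread between pools. Pool by pool it allows up to 27.3%, 42.9% and 33.3%. Their share in C2 was 8.13%, 15.4% and 37.0%. The TEa mark needs a recovered TCR, which fewer C4 cells had at 5 mg/kg than at the other doses, and 23 cells with the TEa beta chain but no mark included none in C4.

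The CD8 coreceptor gene Cd8b1 was read in C4 at 177, 224 and 175 CPM in saline and 271, 357 and 407 CPM at 5 mg/kg, a log2 change of 0.93 (edgeR adjusted p = 0.000261). Cd8a was at 0 in C4 and in the other CD4 cells of every group, so its 0 does not set C4 apart. In the other CD4 cells Cd8b1 stood at 149, 129 and 146 CPM in saline and 90.5, 91.1 and 80.5 CPM at 5 mg/kg. The antibody counts for CD4 in C4 had medians of 305, 487 and 349 at saline, 5 and 50 mg/kg, against 349, 513 and 374 in the other CD4 cells.

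The module scores that the authors deposited were, as medians over C4 cells at saline, 5 and 50 mg/kg, 0.16, 0.09 and 0.15 for the stem-like programme, 0.09, 0.07 and 0.07 for the exhausted programme and 0.02, 0.01 and 0.01 for glycolysis.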
